A study of Mus musculus with 9 samples.

Results

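Neutrophils sorted from all skin lesions were compared with neutrophils sorted from all of the skin around those lesions. The comparison used all 9 arrays of the series, of which 5 held lesion neutrophils and 4 held skin neutrophils. The lesions were papillomas (3 arrays) and tumors, which are cutaneous squamous cell carcinomas (2 arrays). The skin was papilloma skin (2 arrays) and tumor skin (2 arrays), taken from around each kind of lesion. All mice were females of the FVB/N strain and all, skin controls included, had received the mutagen DMBA at weeks 6 and 13 of age and the phorbol ester PMA from week 1 until weeks 18 to 20 of the protocol, so no array held neutrophils of untreated skin. Each array held RNA pooled from several mice, and cells were sorted as Gr-1 bright, with an antibody that binds Ly6G and also Ly6C. The paper reports high purity after sorting, and takes the cells as neutrophils rather than monocytes because they expressed Ly6G alone. Lesions were digested with collagenase IV, dispase II and DNase I but skin with collagenase IV alone, so tissue and digestion cannot be told apart. A gene was called separated where every lesion array lay above, or every lesion array below, all skin arrays, with tissue means at least 2-fold apart and a log2 level that averaged 6 or more.

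Neutrophils are short-lived phagocytes that leave the bone marrow loaded with granules of antimicrobial proteins, most of which are made while the cell matures. In inflamed tissue they release interleukin-1 and chemokines that draw in further leukocytes, and they meet much of their energy need by glycolysis. Tumor-associated neutrophils (TANs) can also restrain T cells, through arginase, nitric oxide synthase and the checkpoint ligand PD-L1, and can release factors that act on vessels and matrix.

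The arrays lay on 3 slides. Slide 1 held the first replicate of each group, and on 3 of these, namely tumor 1, papilloma skin 1 and tumor skin 1, scanner signals put 90.7% to 95.0% of probes well above background, against 44.2% to 64.2% on the other 6 arrays of the series. In the deposited value table the column of papilloma skin 1 had a Spearman correlation of 0.587 with its own scanner file and 0.923 with that of tumor 2, and the column of tumor 1 had 0.825 with its own and 0.946 with that of tumor 2. The columns of papilloma 2 and papilloma 3 were each closer to the other's file (0.981 and 0.958). The other 5 columns were closest to their own file (0.930 to 0.980). Results are therefore also given without papilloma skin 1 and tumor 1 (7 columns).

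Of 34797 gene names, 1367 were differentially expressed genes (DEGs) between lesion and skin neutrophils, 3.93% of the genes tested. A DEG had a limma adjusted p of at most 0.05, a log2 difference of at least 1 (2-fold) and the same minimum level. Only 18822 of the names reached that level. Among genes able to pass, the shares of DEGs and of separated genes were therefore higher than the shares of all genes given here. The DEGs comprised 843 genes higher in lesions (2.42%) and 524 genes lower (1.51%). Without papilloma skin 1 and tumor 1 there were 1584 DEGs. When the scanner files were processed anew by quantile scaling with the slide in the model, no gene passed the limma adjusted p, 2860 genes had an unadjusted p under 0.05, and 22 genes were DEGs with 75th percentile scaling in place of quantiles. With quantile scaling, 1360 of the 1362 DEGs measured there kept their sign. P-values of the value table therefore hold for the table as its authors processed it, and measure the spread left between these pools of mice after that processing. If the chip effect was removed from the table, which is not stated, these p-values are too small.

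In 695 genes (2.0% of all genes) every lesion array lay above every skin array by the full rule, and in 411 genes (1.18%) every lesion array lay below. Of these, 672 and 400 were also DEGs. In a further 147 higher and 118 lower DEGs the lesion and skin arrays overlapped. With no minimum of size or level, 2706 genes (7.78%) were separated upward and 1778 (5.11%) downward. The median fold was 2.66 among the separated higher genes and 2.70 among the lower ones, but the extremes were unequal. At least 8-fold differences were found in 22 higher and 70 lower genes, and 43 of those 70 were immunoglobulin chains. Signal was well above background on all lesion arrays for 692 of the 695 higher genes and on all skin arrays for 402 of the 411 lower genes. At the 2-fold limit, the difference of tissue means was 1.00 for Mapk7, just inside, and 0.999 for Xbp1, just outside, while Aoah lay just inside at -1.0 and Sh3bp5 just outside at -0.998. Without papilloma skin 1 and tumor 1 the number of separated genes was 1798, where fewer arrays have to lie apart.

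Within the slides, which each held lesion and skin arrays, scanner signals gave 677 of 693 separated higher genes (97.7%) a higher lesion mean on all 3 slides, against 19.5% of all 34566 genes measured there. For the lower genes 373 of 408 (91.4%) were lower on all 3 slides, against 17.3% of all genes. These are the same hybridizations that defined the separated genes, so the counts describe the 2 versions of the data and are not independent.

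**Figure D1:**
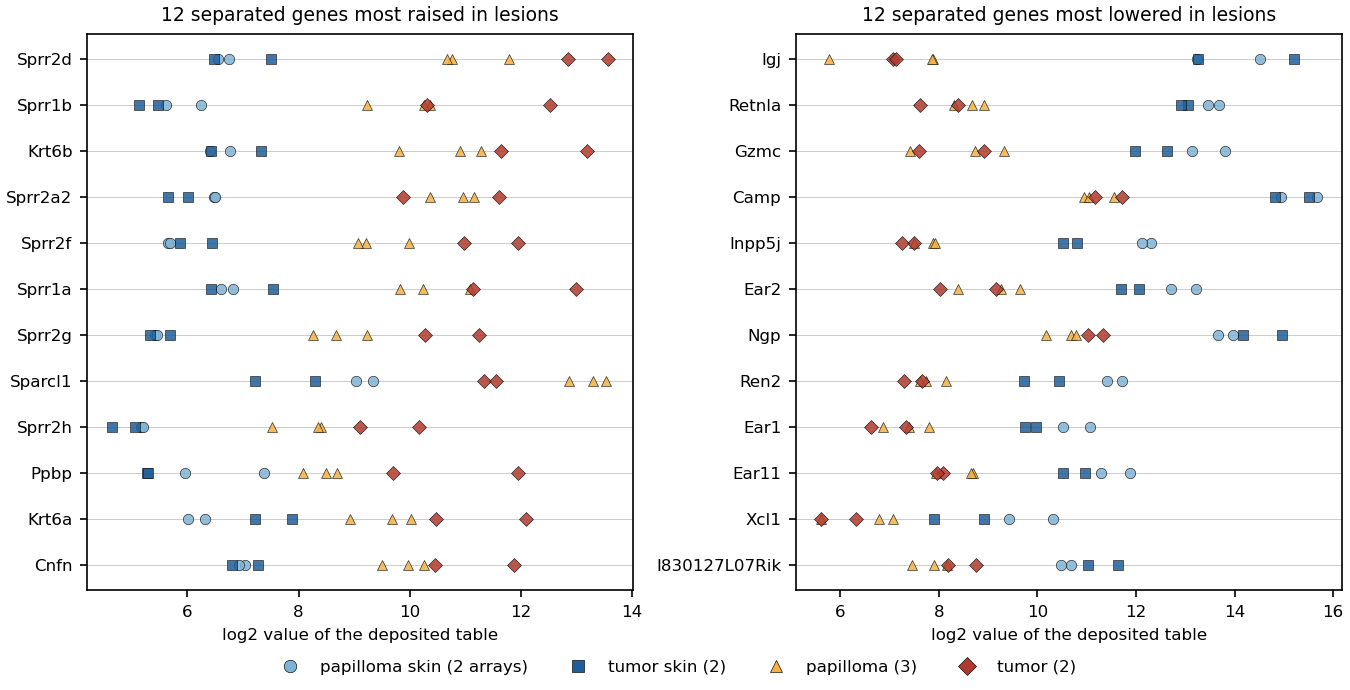
Deposited log2 value of the 12 genes per direction with the largest lesion minus skin difference among separated DEGs with a reference symbol, 1 point per array, by group. The points of papilloma and tumor lie on the same side of all skin points for every gene shown, which the choice of separated genes fixes.

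The largest increases among genes with a reference symbol were in small proline-rich proteins, cross-linked precursors of the cornified envelope that keratinocytes build as they differentiate. Sprr2d had log2 values of 6.56 and 6.75 in papilloma skin, 7.50 and 6.48 in tumor skin, 10.76, 11.79 and 10.67 in papilloma and 12.85 and 13.58 in tumor. Its mean was 6.82 ± 0.47 (SD, n = 4) in skin and 11.93 ± 1.28 (SD, n = 5) in lesions, a log2 difference of 5.32 (SE 0.31), or 40.0-fold, with a limma adjusted p of 5.9e-05. The lowest lesion array lay 3.17 above the highest skin array, and only 2 of the 4 skin arrays were well above background. On papilloma skin 1 and tumor skin 1, 95.0% and 90.7% of all probes were well above background. A count of 2 of 4 skin arrays, here and below, may therefore come from these arrays alone. Folds of such genes rest on skin values near background, and their size is uncertain. Sprr1b, another envelope precursor, was at 6.25, 5.62, 5.14 and 5.46 in the skin arrays and at 10.37, 10.26, 9.23, 10.31 and 12.53 in the lesion arrays (33.6-fold, limma adjusted p = 0.00036), again with 2 of 4 skin arrays well above background. Tumor 2 was the highest array for both genes. Sprr2a2 differed by 4.63 (24.8-fold, limma adjusted p = 0.000159), but its 3 probes gave differences from -0.11 to 4.63.

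Of 15 Sprr genes on the array, 11 rose and all of those 11 were separated, with a median log2 difference of 3.46 over the 15. This family was chosen after its values were seen. Differences of 0.09 for Sprr2a1, 0.05 for Sprr2b, 0.90 for Sprr3 and -0.30 for Sprr4 did not pass. Sprr2j-ps and Sprr2k were not well above background on any skin array, and were at least 4.18-fold and at least 3.44-fold higher in lesions, taking the dimmest signal well above background on each skin array as the bound. The probes of the family lie at chr3:92027346-92304254 in mm9, the build of the array annotation. In the neighbouring late cornified envelope genes (chr3:92450489-92821888, mm9), also picked after the fact, 3 of 17 rose, with Lce3c at 3.48, Lce3a at 3.13 and Lce3b at 2.68, none of them well above background on all skin arrays. The members of these families are near copies of each other, and a probe may take up signal of several.

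Promoters are shown for the 2 genes per direction with the widest gap between lesion and skin arrays among separated DEGs with a reference symbol and a promoter entry. Each sequence is the 250 bases before the start of the gene in RefSeq (GRCm38.p6), on the strand of the gene. Capitals mark matches on either strand to TGANTCA (AP-1, the factor that phorbol esters activate), ACGTG (core of the hypoxia response element), TGACNNNGC (core of the antioxidant response element) or the NF-kB motif. The first pair was higher in lesions. Sprr2a2 (chr3:92250397-92250646, plus strand) had no match, and Sprr2d (chr3:92338890-92339139, plus strand) had an AP-1 match that starts 193 bases before the gene and an NF-kB match 83 bases before it.
Sprr2a2: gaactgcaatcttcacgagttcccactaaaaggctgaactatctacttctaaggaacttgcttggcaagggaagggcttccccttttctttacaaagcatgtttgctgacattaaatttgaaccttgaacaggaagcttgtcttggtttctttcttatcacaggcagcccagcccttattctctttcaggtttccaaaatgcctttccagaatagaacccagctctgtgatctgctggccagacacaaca
Sprr2d: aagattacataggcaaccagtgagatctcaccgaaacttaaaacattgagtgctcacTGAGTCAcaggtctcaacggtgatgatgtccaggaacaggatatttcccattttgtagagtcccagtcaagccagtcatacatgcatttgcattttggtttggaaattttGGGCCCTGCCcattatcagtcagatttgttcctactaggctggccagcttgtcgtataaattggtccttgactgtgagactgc
The second pair was lower in lesions. Igj, now named Jchain (chr5:88527898-88528147, minus strand), had an antioxidant core match starting 156 bases and a hypoxia core match starting 69 bases before the gene, and Retnla (chr16:48842359-48842608, plus strand) had none.
Igj: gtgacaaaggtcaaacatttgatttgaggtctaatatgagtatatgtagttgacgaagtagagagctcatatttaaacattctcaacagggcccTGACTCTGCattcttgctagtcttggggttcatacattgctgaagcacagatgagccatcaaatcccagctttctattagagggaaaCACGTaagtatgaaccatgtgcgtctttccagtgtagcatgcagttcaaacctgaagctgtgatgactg
Retnla: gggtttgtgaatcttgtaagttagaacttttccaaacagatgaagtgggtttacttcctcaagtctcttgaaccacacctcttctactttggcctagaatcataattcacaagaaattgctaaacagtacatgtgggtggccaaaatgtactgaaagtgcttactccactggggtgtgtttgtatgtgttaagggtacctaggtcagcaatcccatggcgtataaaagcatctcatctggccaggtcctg

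Promoter entries, from 250 bases before to 50 after the start, were found for 452 of the separated higher genes, 200 of the lower genes and 27025 genes in all. TGANTCA was in 13.9% of the higher, 11% of the lower and 9.0% of all promoters. ACGTG was in 35.0% of the higher, 24.0% of the lower and 21.8% of all. The NF-kB motif was in 27.4%, 26.5% and 19.4%, and TGACNNNGC in 15.3%, 21.5% and 14.0%, in the same order. Among the 17436 genes of the array with an entry, TGANTCA was in 8.2%, ACGTG in 24.0%, the NF-kB motif in 21.1% and TGACNNNGC in 15.1%. These shares were not tested, and a match is only a run of letters.

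Keratinocyte markers moved in part. Of 21 markers, 7 rose and none fell (Krt6a, Krt6b, Krt14, Krt16, Krtdap and the envelope precursors Sprr1b and Sprr2h), with a median difference of 0.99 against -0.02 over all genes. Krt6b, a keratin of wounded and hyperproliferative epidermis, had 6.40, 6.76, 6.43 and 7.33 in the skin arrays and 11.29, 10.90, 9.81, 11.63 and 13.18 in the lesion arrays (28.0-fold, limma adjusted p = 0.000294). Krt14, of basal keratinocytes, was 6.67-fold higher (limma adjusted p = 0.0103). Krt5, its partner in the same filaments, differed by 1.20 with a limma adjusted p of 0.0995, and Trp63, the lineage factor of stratified epithelia, by 0.32 (limma adjusted p = 0.601). The epithelial marker Epcam differed by -0.01. Over all 52 Krt genes on the array, 5 rose and none fell, with a median of -0.02. Averaged over the 21 markers, log2 levels were 7.33 to 8.08 in the skin arrays and 8.66 to 10.39 in the lesion arrays. These means give weight to the few markers with large differences. As medians over the list of the log2 value minus the gene's mean, arrays nearly met, at -1.265 to -0.264 in skin and -0.19 to 1.72 in lesions. Without papilloma skin 1 and tumor 1, 11 of the 21 rose.

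Markers of vessels and connective tissue moved in part. Of 15 endothelial markers, 10 rose and none fell (median 1.31), but 3 were separated at any size and 6 rose with the replicate number in the model. Cdh5, the cadherin of endothelial junctions, was 5.59-fold higher, with 2 of 4 skin arrays well above background and overlapping arrays, and Pecam1 (0.98) and Kdr (0.50) did not pass. Of 15 fibroblast markers, 7 rose and none fell (median 0.94), Pdgfrb, a growth factor receptor of pericytes and fibroblasts, by 5.48-fold (limma adjusted p = 2.37e-05). Of the 15, 3 were separated at any size and 4 rose with the replicate number in the model, and Dcn (decorin, -0.98) and Mfap5 (-1.0), also of fibroblasts, lay on the other side without passing. As medians over the list of the log2 value minus the gene's mean over all arrays, tumor 1 (-0.84) and tumor 2 (0.15) were below papilloma skin 1 (0.54). Of 10 smooth muscle markers only Actg2 and Rgs5 rose. Sparcl1, a matrix protein of vessel walls, had 9.34, 9.03, 8.29 and 7.22 in skin, 12.86, 13.54 and 13.29 in papilloma and 11.34 and 11.56 in tumor (14.6-fold, limma adjusted p = 7.14e-05). Both tumor arrays lay below the papilloma arrays and above all skin arrays.

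Collagen genes were also counted as a list, which shares Col1a1, Col1a2 and Col3a1 with the fibroblast markers. Col1a1 and Col3a1 are among the genes that rose in both counts. Of 14 collagen genes, 11 rose and none fell (median 1.28), 5 were separated at any size, and 7 rose with the replicate number in the model. Over all 44 Col genes on the array, 12 rose and none fell, with a median of 0.32. Col4a1, a chain of the basement membrane collagen, stood at 7.21, 7.30, 6.06 and 6.34 in skin, 11.29, 10.99 and 11.22 in papilloma and 8.73 and 9.12 in tumor (difference 3.32, limma adjusted p = 1.98e-05). Col18a1, the precursor of endostatin, was 7.89-fold higher. Col1a1, the main fibrillar collagen chain, differed by 3.66-fold (limma adjusted p = 0.0214) with overlapping arrays. The samples were sorted for Gr-1, and whether cells of these types, their RNA or expression by neutrophils gave the signal was not tested. In bulk RNA, fewer cells of a type and less RNA per cell cannot be told apart.

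**Figure D2:**
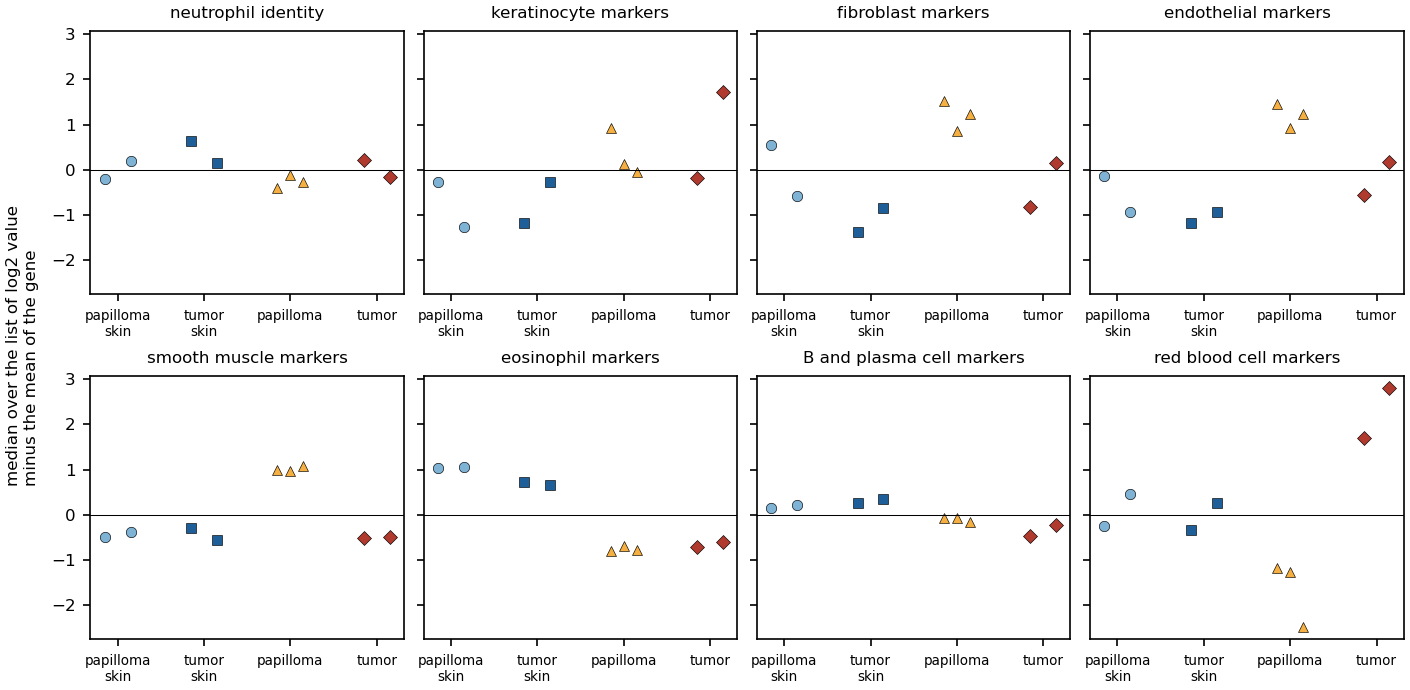
Median over each marker list of the log2 value minus the gene's mean over the 9 arrays, 1 point per array, by group. Endothelial markers lie between -1.18 and -0.14 in skin, 0.91 and 1.46 in papilloma and -0.57 and 0.18 in tumor, and eosinophil markers lie between 0.66 and 1.05 in skin and -0.82 and -0.61 in lesions.

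The sorted cells carried the main neutrophil genes in both tissues. Of 18 neutrophil identity genes none rose and 3 fell (Ly6g, Mmp8 and Cd177), with a median of -0.23. S100a8, a calcium-binding alarmin of granulocytes, ranged from 18.18 to 18.22 in skin and from 17.88 to 18.14 in lesions (difference -0.19, limma adjusted p = 0.147). Csf3r, the G-CSF receptor, was at 16.77 to 16.89 in skin and 16.68 to 16.79 in lesions. Ly6g, 1 of the antigens of the sorting antibody, ranged from 10.27 to 12.65 in skin and from 9.30 to 10.74 in lesions, a difference of -1.58 (limma adjusted p = 0.00262) with overlapping arrays.

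Chemokines changed in both directions. Of 18 chemokines and receptors, 5 rose (Cxcl2, Cxcl3, Cxcl5, Ccl3 and Ccl4) and 3 fell (Ccl6, Ccl9 and Ccr2). Ccl3, a chemokine of activated myeloid cells, had 14.94, 15.01, 14.51 and 14.41 in skin, 16.79, 16.98 and 16.76 in papilloma and 16.68 and 16.84 in tumor (4.25-fold, limma adjusted p = 2.37e-05). Its 5 lesion arrays lay close together, well above the highest skin array. Cxcl3, a ligand of the neutrophil receptor Cxcr2, was 6.06-fold higher (limma adjusted p = 5.9e-05). Cxcl2, another such ligand, lay just inside the fold limit at 2.01-fold (limma adjusted p = 0.0116) and lost its call without papilloma skin 1 and tumor 1 (limma adjusted p = 0.0942). By stage, Cxcl2 passed in tumor (difference 1.48, limma adjusted p = 0.0198) but not in papilloma (0.54, limma adjusted p = 0.291). Cxcr2 itself differed by -0.26 and did not pass.

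Ppbp, a platelet chemokine precursor that yields a further Cxcr2 ligand, was at 7.37, 5.95, 5.28 and 5.30 in skin and 8.50, 8.69, 8.09, 9.71 and 11.95 in lesions (12.6-fold, limma adjusted p = 0.00179), with 1 of 4 skin arrays well above background. Against its own skin, Ppbp passed in tumor (difference 5.54, limma adjusted p = 0.0039) but not in papilloma (1.77, limma adjusted p = 0.146). Ccl6 fell 3.09-fold and Ccl9, a chemokine of myeloid cells, 5.07-fold (limma adjusted p = 0.000631).

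In the interleukin-1 family, 4 of 12 genes rose and none fell (median 0.94). Il1a, the alarmin form, was at 8.46, 9.07, 8.58 and 7.97 in skin, 11.67, 12.44 and 11.82 in papilloma and 11.62 and 11.60 in tumor, 9.65-fold higher (limma adjusted p = 9.48e-05). Il1rn, the antagonist of the shared receptor, was 3.12-fold higher and Il1r1, that receptor, 2.83-fold, with 2 of 4 skin arrays well above background for Il1r1. Il1b, the form that inflammasomes process, was near the top of the scale in both tissues and differed by 0.14 (limma adjusted p = 0.365).

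Of 14 genes linked to tumor-promoting neutrophils, 9 rose and none fell (median 1.36), and 8 were separated at any size. The study reported on some of these genes from the same arrays, so their direction is not independent evidence. Nos2, the inducible nitric oxide synthase, had 7.58 and 8.11 in papilloma skin, 9.68 and 9.78 in tumor skin, 10.76, 10.90 and 10.55 in papilloma and 12.70 and 12.37 in tumor (7.21-fold, limma adjusted p = 3.48e-05). Tumor skin lay above papilloma skin and tumor above papilloma, and the lesion effects of the stages differed by -0.09. Arg1, arginase, was at 8.77, 7.17, 7.16 and 6.32 in skin and 9.22, 9.64, 10.50, 9.77 and 10.61 in lesions (6.20-fold, limma adjusted p = 0.00424), with papilloma skin 1 close to papilloma 1.

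Cd274, which encodes PD-L1, was 2.59-fold higher (limma adjusted p = 0.00132). Csf1, the macrophage growth factor, was 5.03-fold higher, Spp1 (osteopontin) 6.87-fold and Olr1, the oxidized LDL receptor LOX-1, 4.42-fold. Vegfa, the vascular growth factor, was 2.26-fold higher (limma adjusted p = 0.000306). Tgfb1 (-0.17), Mmp9 (0.09), Il10 (0.32), Lgals3 (0.39) and Siglec5 (0.60) did not pass. The paper reports Siglec5 among the genes significantly upregulated in lesions, from comparisons of each kind of lesion with its own skin. The 0.60 given here averages both stages and fell short of the 2-fold limit, so the results are not like for like.

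Glycolysis genes were higher in lesion neutrophils. Of 20, 11 rose and none fell (median 1.17), and 13 were separated at any size. Hk2, an inducible hexokinase, had the smallest limma adjusted p of all genes (1.17e-05). It was at 9.60, 9.50, 9.82 and 9.86 in skin and 12.69, 12.60, 12.60, 12.71 and 12.71 in lesions, a mean of 9.69 ± 0.17 (SD, n = 4) against 12.66 ± 0.06 (SD, n = 5), or 7.88-fold. Hk1, the constitutive hexokinase, was 3.51-fold higher. Slc2a1, the glucose transporter GLUT1, was at 13.80, 14.12, 14.32 and 13.85 in skin and 15.44, 15.97, 15.64, 16.16 and 15.85 in lesions (3.54-fold, limma adjusted p = 0.000361).

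Further steps of the pathway moved as well. Tpi1, triosephosphate isomerase, was 4.72-fold higher and Pfkfb3, which makes the activator of phosphofructokinase, 4.06-fold. Pgam1, phosphoglycerate mutase, was 2.93-fold higher and Ldha, which reduces pyruvate to lactate, 3.28-fold. Slc2a3, the other glucose transporter (0.25), and Slc16a3, which exports lactate (-0.17), did not pass. None of 19 respiratory chain genes rose or fell (median -0.08). G6pdx, the entry enzyme of the pentose phosphate pathway, fell 4.22-fold (limma adjusted p = 0.000257), and Taldo1, transaldolase of the same pathway, fell 2.40-fold.

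Of 16 hypoxia response genes, 10 rose and none fell (median 1.51). Ero1l, an oxidase for protein folding in the endoplasmic reticulum, was at 8.39, 8.52, 8.66 and 8.28 in skin, 11.16, 11.66 and 11.20 in papilloma and 11.19 and 11.48 in tumor (7.34-fold, limma adjusted p = 3.68e-05). Egln3, an oxygen-sensing prolyl hydroxylase, was 7.12-fold higher, Adm (adrenomedullin) 5.09-fold and Bnip3, a mitophagy receptor, 5.02-fold. Pdk1, a kinase that inhibits pyruvate dehydrogenase, was 3.29-fold higher. Car9, a widely used hypoxia marker of epithelial tumors, differed by -0.02, and Ndrg1 by 0.30.

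**Figure D3:**
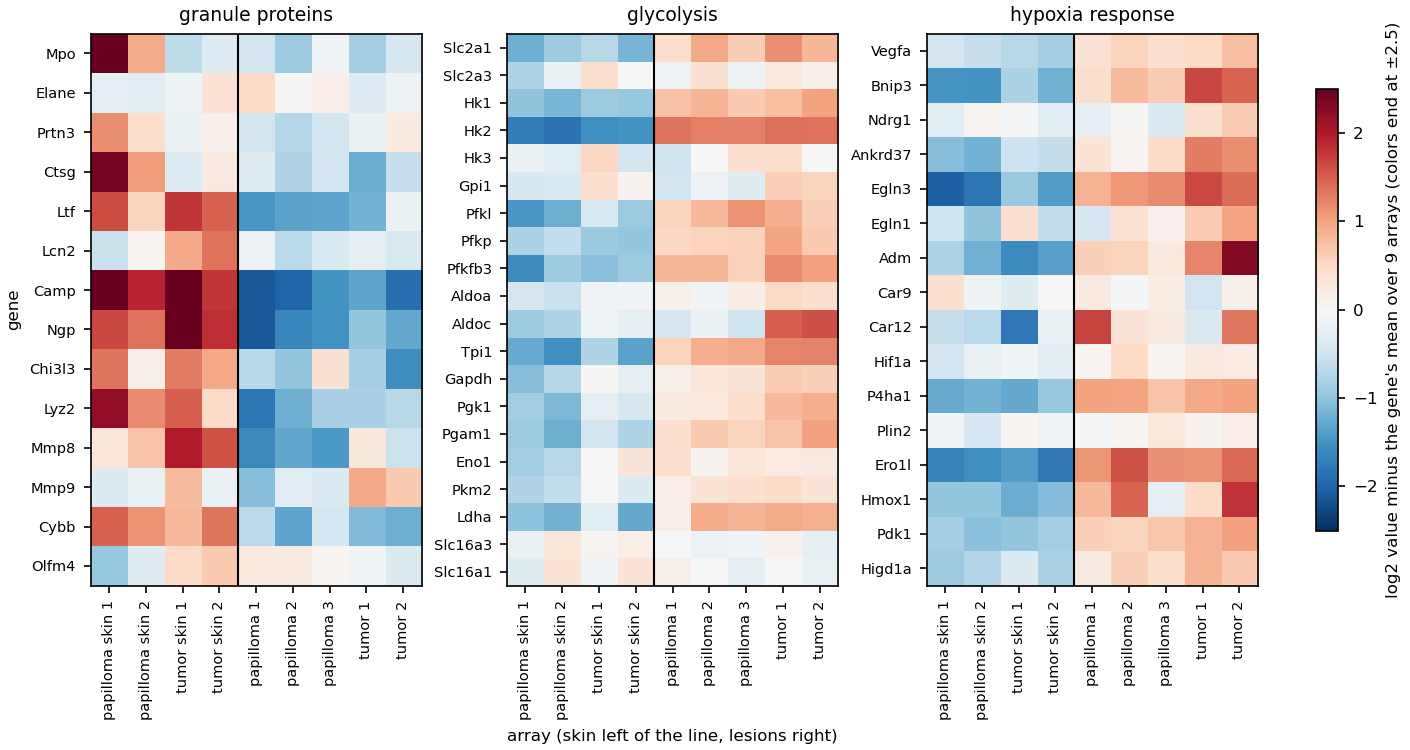
Log2 value minus the gene's mean over the 9 arrays for granule proteins, glycolysis and hypoxia response genes, 1 column per array grouped as skin and lesions, with colors ending at 2.5 on either side. Hk2 and Ero1l are low in all 4 skin arrays and high in all 5 lesion arrays, and Camp and Ngp are the reverse.

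Early response genes rose in part. Of 15 AP-1 and early growth response genes, 5 rose and none fell (median 0.60). Egr1, an immediate early transcription factor, was 5.19-fold higher (limma adjusted p = 9.75e-05), Egr2 4.70-fold, Ier3 5.88-fold and Jun, a subunit of AP-1, 2.76-fold. Fos, its partner, differed by 0.28 and did not pass. Jun was also the separated higher gene with the highest mean level. In order of level the 10 such genes were Jun, Cxcl2, Socs3, Ccl3, Dedd2, Tgm2, Ccl4, Egr1, Slc2a1 and Pgam1, with folds from 2.01 to 5.19.

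Of 16 TGF-beta response genes, 6 rose and none fell (median 0.66), among them Smad7, an inhibitor of the pathway (4.08-fold), Ctgf (3.35-fold) and Skil (2.20-fold). Of 19 matrix proteases and inhibitors, 5 rose (Mmp3, Mmp13, Adamts4, Timp1 and Plau) and 1 fell (Mmp8). Mmp3 and Mmp13, stromal proteases, were 3.94-fold and 3.49-fold higher, with 2 of 4 skin arrays well above background for each. Of 14 NRF2 oxidative stress genes, 3 rose, namely Akr1b8 (5.10-fold), Gsta2 (4.92-fold, with 2 of 4 skin arrays well above background) and Hmox1, heme oxygenase (3.92-fold), and G6pdx fell. Of 20 type I interferon response genes only Rsad2 rose (2.04-fold, with overlapping arrays), the list having a median of -0.04. None of 20 cell cycle genes passed (median 0.24).

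Granule proteins were lower in lesion neutrophils. Of 14 on the array, none rose and 9 fell (median -1.64), and 6 were separated at any size. Camp, the cathelicidin of secondary granules, was at 15.68, 14.93, 15.50 and 14.83 in skin, 10.94, 11.04 and 11.54 in papilloma and 11.72 and 11.16 in tumor. The log2 difference was -3.93 (SE 0.24), 15.2-fold lower, with a limma adjusted p of 6.37e-05 and 3.11 between the nearest arrays. Ngp, a cystatin-like protein of the same granules, fell by 3.33 on the log2 scale (limma adjusted p = 7.17e-05) and Ltf, lactoferrin, 5.22-fold lower (limma adjusted p = 0.000985).

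Lyz2 (lysozyme) was 5.14-fold lower and Cybb, the catalytic subunit of the NADPH oxidase, 4.48-fold lower. Chi3l3, a chitinase-like protein, was 3.34-fold lower with overlapping arrays. Among primary granule proteins, Ctsg (cathepsin G) fell 2.92-fold with overlapping arrays and Mpo, myeloperoxidase, passed narrowly (-1.21, limma adjusted p = 0.0498), while Elane, neutrophil elastase, differed by 0.07 (limma adjusted p = 0.771). Without papilloma skin 1 and tumor 1, 7 of the 14 fell. The 10 separated lower genes of highest level, from Hp, a secreted hemoglobin-binding protein, to Flna, an actin crosslinker, had folds from 2.09 to 3.28 and also held Anxa1, Gpx1, Ifitm6, Lsp1 and Zyx.

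**Figure D4:**
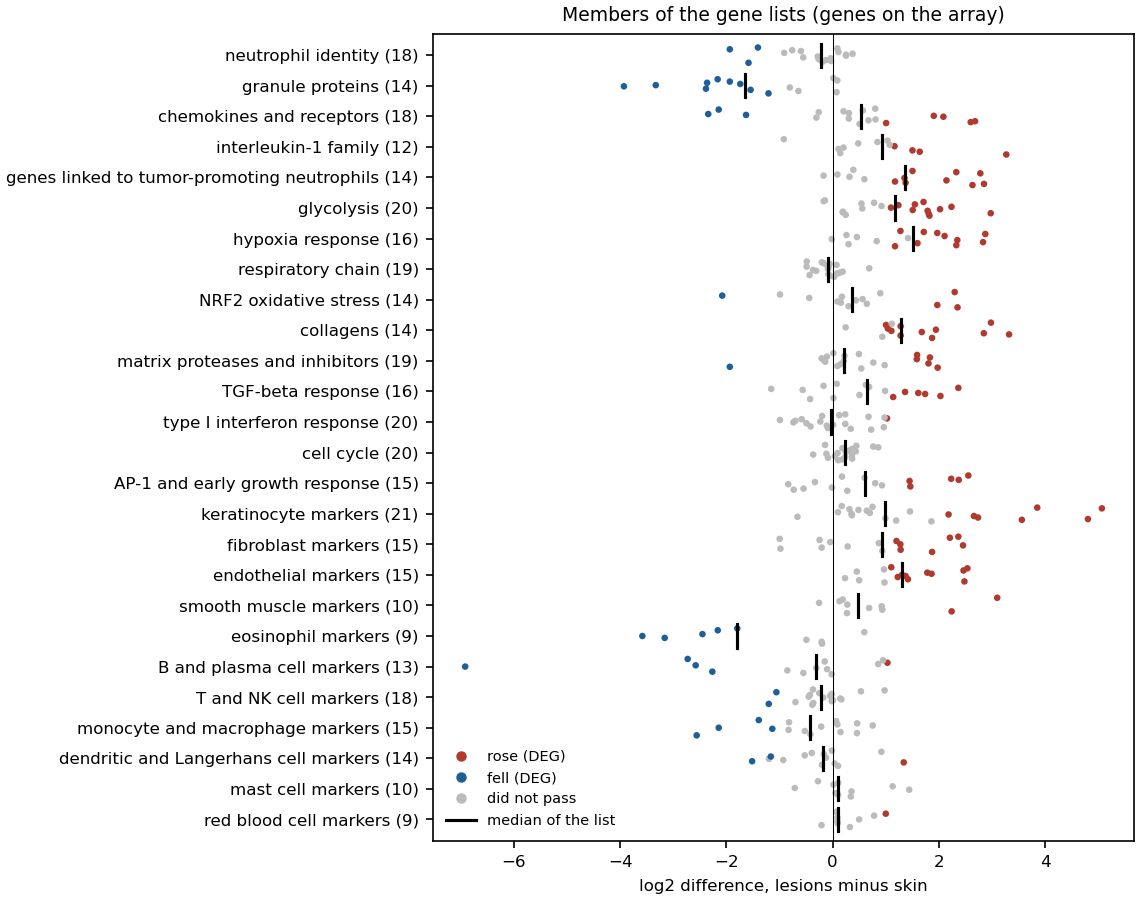
Lesion minus skin log2 difference of each member of the 26 gene lists, 1 point per gene, with a bar at the median of the list. Medians run from -1.80 for eosinophil markers and -1.64 for granule proteins to 1.51 for hypoxia response genes.

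Immunoglobulin transcripts were far lower in lesion neutrophils. Igj, the joining chain of secreted IgA and IgM, was at 14.53, 13.24, 13.26 and 15.20 in skin, 7.88, 5.78 and 7.87 in papilloma and 7.08 and 7.13 in tumor. It was 121.0-fold lower in lesions (log2 difference -6.92, SE 0.57, limma adjusted p = 0.000257). Among 131 immunoglobulin chains, taken by their description after values were seen, 82 fell and none rose (median -2.11), and 68 were separated. The kappa constant region (ENSMUST00000103410) was at 16.43, 15.14, 15.19 and 17.08 in skin and 8.89, 6.71, 9.21, 8.70 and 9.06 in lesions, 167.0-fold lower. Immunoglobulin segments are near copies of each other, and their probes may share signal.

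The list of 13 B and plasma cell markers was less uniform. Igj, Derl3, a factor of protein export that plasma cells use (5.97-fold), Cd79b, of the B cell receptor (4.80-fold), and Pou2af1 fell, whereas Xbp1, which drives secretory capacity in many cells, rose 2.05-fold. Ms4a1, which encodes CD20, differed by -0.85 at levels of 5.21 to 6.63. Over the whole list mean log2 levels were 8.03 to 8.87 in skin and 7.05 to 7.75 in lesions, so no array of either tissue reached the other. Igj, at -6.92, weighs heavily on these means, and the median difference over the list was -0.31. As medians over the list of the log2 value minus the gene's mean, arrays were at 0.144 to 0.348 in skin and -0.468 to -0.064 in lesions. Whether antibody-secreting cells in the skin sort account for these values was not tested.

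Retnla and most Ear genes were likewise lower. Retnla, a secreted resistin-like protein of type 2 immunity, had 13.69, 13.46, 13.05 and 12.91 in skin and 8.66, 8.31, 8.90, 8.39 and 7.61 in lesions. It was 31.2-fold lower (log2 difference -4.96, SE 0.19, limma adjusted p = 1.98e-05), with 4.0 between the nearest arrays. Ear2, an eosinophil-associated ribonuclease, was at 13.21, 12.72, 11.70 and 12.06 in skin and 9.27, 8.38, 9.65, 9.15 and 8.02 in lesions (difference -3.58, limma adjusted p = 0.000356). Of 9 Ear genes, a family picked after values were seen, 7 fell and all 7 were separated (median -2.45). Ear4 and Ear5, near the lower end of the scale, did not pass. The probes lie on chromosome 14 (chr14:44396709-52474312, mm9), and these genes too are close copies.

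Of 9 eosinophil markers, 5 fell and none rose, and Siglec5, which encodes Siglec-F, differed by 0.60 (limma adjusted p = 0.048, under the 2-fold limit). Besides the Ear genes these were Ccr3, the eotaxin receptor (4.48-fold), and Il5ra, the interleukin-5 receptor chain (3.47-fold). Epx, the eosinophil peroxidase, ranged from 5.01 to 6.31 in skin and 5.04 to 5.62 in lesions, was well above background on 2 skin arrays and 1 lesion array, and differed by -0.20 (limma adjusted p = 0.303). Mean log2 levels over the list were 8.46 to 9.39 in skin and 7.17 to 7.56 in lesions. The paper excluded eosinophil contamination on the ground that Epx was not expressed. The part that eosinophils in the sort had in these differences was not tested here.

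Markers of other leukocytes changed in small numbers. Of 15 monocyte and macrophage markers, 4 fell (Emr1, Cx3cr1, Ccr2 and Fcgr1) and none rose (median -0.42), and without papilloma skin 1 and tumor 1 only 1 fell, while 2 fell with the replicate number in the model. Emr1, a macrophage surface receptor that eosinophils share, was 5.89-fold lower (limma adjusted p = 2.37e-05). Of 18 T and NK cell markers, Cd3d (2.30-fold) and Tbx21 (2.08-fold) fell while Cd3e differed by -0.38. Of 14 dendritic and Langerhans cell markers, Itgax rose 2.53-fold and Cd74 and Ciita, of antigen presentation by MHC class II, fell 2.86-fold and 2.24-fold. None of 10 mast cell markers passed.

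Gzmc, a granzyme of cytotoxic lymphocytes, was at 13.80, 13.13, 11.98 and 12.63 in skin and 8.74, 7.41, 9.31, 8.92 and 7.59 in lesions (22.9-fold lower, limma adjusted p = 0.000504), and was the only 1 of 10 Gzm genes to fall. Inpp5j, a phosphoinositide phosphatase, was 14.6-fold lower (limma adjusted p = 1.85e-05). Ren2, a renin gene, was 9.01-fold lower, and Xcl1, a lymphocyte chemokine, 7.50-fold lower.

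The comparisons at each stage share no array. There were 1251 DEGs between papilloma and papilloma skin (3.60% of genes) and 1516 between tumor and tumor skin (4.36%). DEGs of the same direction at both stages numbered 680, of which 434 were higher and 246 lower, or 54.4% of the papilloma DEGs and 44.9% of the tumor DEGs. The number was 248 with the replicate number in the model and 155 with the slide in the model. By sign alone, 95.4% of papilloma DEGs had the same direction at the tumor stage and 94.6% of tumor DEGs the same at the papilloma stage, against 62.5% of all genes. The separated genes included 654 of the genes in both stage lists.

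**Figure D5:**
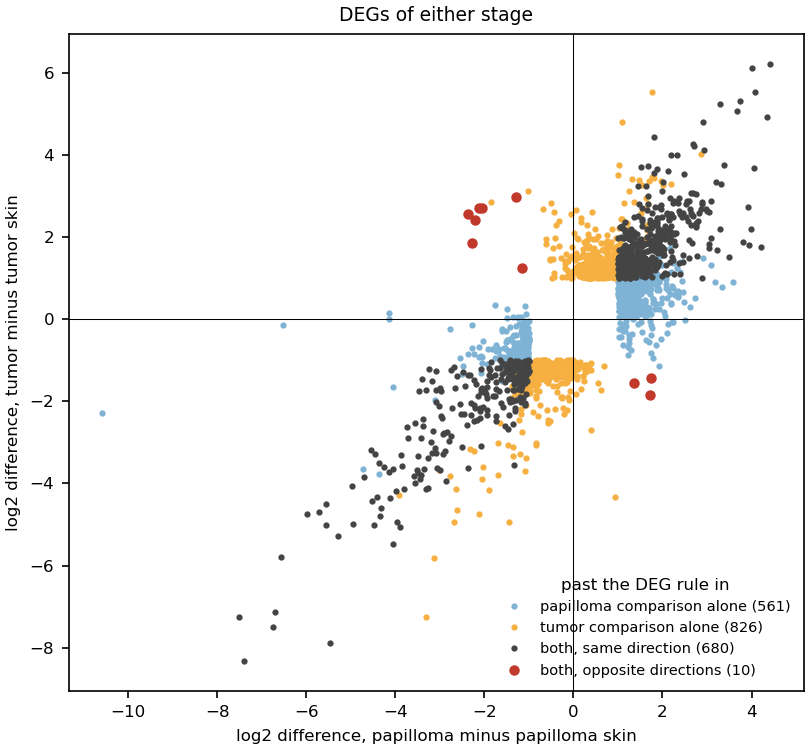
Tumor minus tumor skin against papilloma minus papilloma skin, both as log2 differences, 1 point per DEG of either stage, colored by the stages at which it passed. Most points lie at the lower left and upper right, and the 10 genes that passed in opposite directions include Hba-a1, Dct and Ptgds.

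Opposite directions were found in 10 genes that were DEGs at both stages. Globin genes (Hba-a1, Hba-a2, Hbb-b1, Hbb-b2 and Beta-s) and Lamtor2 were lower in papilloma and higher in tumor, and Dct, Pmel and Ptgds were the reverse. These genes are named as a small set, after values were seen. Hba-a1, alpha globin, was at 14.69, 15.51, 14.66 and 15.20 in skin, 13.36, 13.53 and 12.25 in papilloma and 17.45 and 17.83 in tumor, and so did not differ over all lesions (0.33, limma adjusted p = 0.516). Dct, a melanin synthesis enzyme, was at 8.04 and 9.13 in papilloma skin, 9.88 and 9.84 in tumor skin, 10.53, 10.24 and 10.12 in papilloma and 8.26 and 7.80 in tumor.

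The difference between the effects at the 2 stages passed for 31 genes (0.0891% of those tested), 9 more positive and 22 more negative at the tumor stage, of which 12 were separated. The negative ones included contractile and mural cell genes (Actg2, Tagln, Acta2, Notch3, Heyl, Gja4 and Cspg4) and pigment cell genes (Dct and Mlana). The positive ones included Hba-a1, Fech and transcripts without a reference symbol. Of these, ENSMUST00000103423 had the largest stage difference (8.29, from -10.58 in papilloma and -2.29 in tumor). ENSMUST00000103336 (-4.145 and -0.005) and ENSMUST00000103365 (-4.147 and 0.153) were lower in papilloma with little difference in tumor. Actg2, gamma smooth muscle actin, was at 6.09, 6.12, 5.37 and 5.67 in skin, 9.84, 9.56 and 9.68 in papilloma and 6.18 and 6.65 in tumor, a stage difference of -2.69 (limma adjusted p = 0.0219). Its 2 tumor arrays were close to skin and its 3 papilloma arrays stood apart. None of the 31 passed with the slide in the model, and none passed without papilloma skin 1 and tumor 1. For comparison, the stage difference was -0.21 for Hk2, 0.41 for Camp, -0.03 for Retnla and -0.03 for Ero1l, and none of these passed.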

How the data were processed

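Neutrophil RNA was hybridized to 1-color Agilent mouse arrays, 1 sample per array. Per the headers of the deposited scanner files, Feature Extraction 10.7.3.1 gave the intensity of each spot, and the array annotation used mm9. The authors' value table holds log2 values of 55681 probes. Their methods describe quantile normalization and ComBat against the chip effect, but which steps the table holds is not stated. If the chip effect had been removed, the 5 residual degrees of freedom would not count it and p-values would be too small. The 9 columns were matched to samples by name, and groups were taken from the labels.

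Probes of a GeneName were averaged by their median (34797 names, 11173 with several probes). Of 28685 probes with a RefSeq accession, 27235 matched the reference table. Limma 3.58.1 in R 4.3.3 fitted 4 group means over all 9 arrays, with Benjamini-Hochberg adjustment over all genes. The lesion effect was the mean of papilloma and tumor minus the mean of papilloma skin and tumor skin. No test was made for lists, which are described by counts and medians. The fits were tested on simulated data. Alternatives were another summary, level limit, scaling, array weights, a slide term, a replicate block, fewer columns, leaving out each array, and scanner intensity scaled by quantiles, the 75th percentile or after normexp with an offset of 50. The version without 3 columns (6 columns) was chosen after seeing the data. Genes were named as the 12 largest differences, 5 widest gaps and 10 highest levels per direction among separated DEGs with a symbol and signal, the 5 largest stage differences, and list members. A gene that this rule picks is not reported here. The lists and members were chosen with earlier results of these data known. The number of arrays limits the precision, and no spot was saturated.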

Additional observations from a re-analysis of the deposited data

Results flagged for a closer look

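Tgm2, a transglutaminase, was at 15.399 in tumor 2, the lowest of the 5 lesion arrays, with the next at 16.116. Hp was at 17.175 in tumor skin 1, the highest of the 4 skin arrays, with the next at 16.92. Both values stood far from the others of their tissue by Dixon's criterion, which chance meets in about 1 in 20 groups.

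The lesion effect differed between the stages (tumor minus papilloma, limma interaction) in 31 genes. The named differences were 4.768 for Hba-a1 (limma adjusted p = 0.0428), -3.545 for Dct (limma adjusted p = 0.0428), -3.171 for Ptgds (limma adjusted p = 0.0317) and -2.694 for Actg2 (limma adjusted p = 0.0219). Each was lost without papilloma skin 1 and tumor 1 and with the slide in the model. Red blood cell markers, which hold Hba-a1, had list medians of -2.49 to -1.18 in papilloma, 1.71 and 2.82 in tumor and -0.33 to 0.45 in skin, and smooth muscle markers, which hold Actg2, had 0.97 to 1.08 in papilloma and -0.51 and -0.50 in tumor. The part of such cells in the differences was not tested.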

How the results depend on the processing

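Over the alternatives on the value table the number of lesion DEGs was 1107 to 2013, including 1211 with the slide as a term and 1714 with 6 columns, and 1123 to 1492 when each array was left out. On the scanner files it was 1 (quantile, no slide correction), 0 (quantile, slide term), 22 (75th percentile, slide term, which moved the median of all genes to -0.28) and 0 (normexp, slide term, with 3253 genes at an unadjusted p under 0.05). The cause was not tested. Of the DEGs measured, 1359 to 1365 kept their sign there. Separated genes numbered 1798 with 7 columns, 702 with 75th percentile scaling of the scanner files (80.6% higher, against 62.8% in the value table) and 1113 to 1445 when an array was left out. DEGs of both stages numbered 155 with the slide term, 248 with the replicate block, 0 in each of the 4 scanner versions and 372 (without tumor 2) to 579 when an array was left out. The 31 stage differences became 15 by probe, 18 at a level of 7, 0 with the slide term, replicate block, 7 columns, 6 columns and the scanner files, and 0 to 8 when an array was left out. For the replicate block, deviations of arrays with the same number correlated from 0.218 to 0.574 between a lesion and its own skin and from -0.942 to -0.197 across stages, and with 2 skin arrays per group the values of the numbers are not independent. The labels do not say that a number marks a shared batch, and the block gave 1122 lesion DEGs. The median of monocyte and macrophage markers reversed to 0.061 (scanner, normexp). Of the values of the 49 named genes, 946 counted as unchanged and 181 lost the call (178 on the scanner files). No named gene that passed in the main fit changed direction. Hba-a1, Dct and Ptgds, which did not pass, changed sign in some alternatives and still counted as unchanged.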
